A study of Mus musculus with 18 samples.

Results

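How the effect of a STAC3 knockdown changed between growing and differentiating C2C12 cells was measured as an interaction: the RNAi effect at day 1 (STAC3 RNAi minus control) minus the RNAi effect at day 0. C2C12 cells are mouse myoblasts that stop dividing and start muscle gene expression when serum is lowered. All 15 samples of the series enter the contrast, on 18 Illumina mouse bead arrays, and the members are the 10146 named genes measured above detection, read from the authors' log2 values. The day 0 control group has 3 samples given a high-GC control RNAi and kept in growth medium with 20% serum, with RNA taken 24 h after the RNAi. The day 0 STAC3 RNAi group has 4 samples handled alike. The day 1 control and day 1 STAC3 RNAi groups have 4 samples each, taken 48 h after the RNAi and after 24 h in differentiation medium with 2% serum. A negative interaction means that the RNAi effect was lower at day 1 than at day 0, and a positive one that it was higher. Medium and time since the RNAi change together, so their parts in the interaction cannot be told apart. The labels name 1 RNAi against STAC3 in 1 cell line, what it does to other transcripts was not tested, and nothing says whether each replicate had a transfection of its own, so the p-values rest on the spread among these samples alone, which may be technical.

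Stac3 encodes an adaptor protein of the triad, where the voltage-sensing calcium channel of the muscle cell membrane meets the calcium release channel of the sarcoplasmic reticulum. Growing myoblasts already express the regulator Myod1. On differentiation they also express Myog and stop dividing with help of the cyclin-dependent kinase inhibitor Cdkn1a. They then fuse, and build sarcomeres, triads and the metabolic enzymes of muscle. MyoD and myogenin bind E-boxes, short DNA motifs of which CAGCTG is a form often found at muscle genes. E2F transcription factors with their DP partners drive genes of DNA replication.

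Of 18408 probes tested, 865 (4.7%) had an interaction past a limma adjusted p of 0.05, 411 positive (2.23%) and 454 negative (2.47%). By gene, where the probe with the highest mean level stands for its gene, 555 of 10146 passed (5.47%), 281 positive (2.77%) and 274 negative (2.7%). A gene of which only another probe passed is not counted. The day 0 effect alone passed for 1489 genes (14.7%) and the day 1 effect for 3832 (37.8%). The median interaction over all genes was 0.00515 and the median standard error (SE) 0.113, both on the log2 scale. Of the 555 genes, 386 passed at day 1 and not at day 0, 93 passed on both days in 1 direction, 53 passed at day 0 and not at day 1, 20 passed on both days in opposite directions, and 3 passed on neither day alone. For 78 of them the day 1 effect was nearer 0 than the day 0 effect. At least 2-fold interactions number 21 positive and 37 negative. Against these, 748 genes passed on both days in the same direction with a 95% interval of the interaction inside 0.5 log2 units of 0, so for these genes a difference between days larger than 0.5 lies outside the interval.

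**Figure D1:**
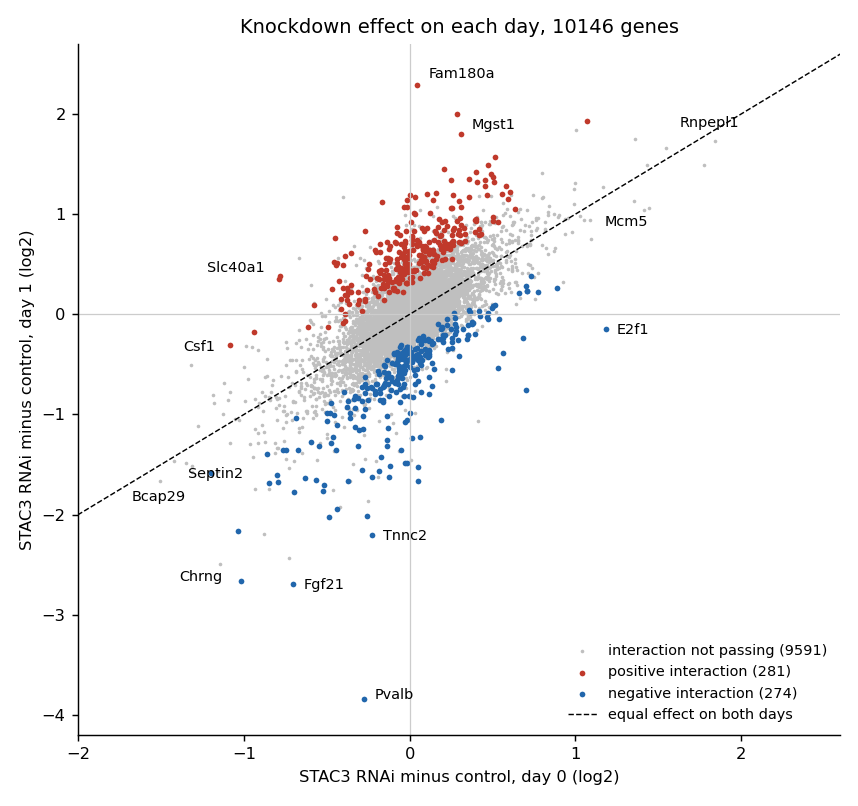
Each point is 1 of 10146 genes, with the STAC3 RNAi minus control difference at day 0 on the x axis and at day 1 on the y axis (log2); colours mark the 281 positive and 274 negative interactions that passed. Distance from the dashed line is the interaction: it is -3.57 for Pvalb and 2.24 for Fam180a, and Rnpepl1 and Bcap29 lie near it with large effects on both days.

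The arrays fall into 12 with higher and 6 with lower median bead intensity, and each of these sets holds all 4 groups. The lower set is uneven, with only 1 array per group on the earlier day. Of its 6 arrays, 3 are repeats of samples that were also read in the higher set. The fit within the 6 arrays is therefore neither balanced nor a separate check. With array set as a block 1216 probes passed, within the 12 arrays 1098, and within the 6 arrays none, where 1358 had an unadjusted p below 0.05. Of the 865 probes, 860 had the same sign within the 6 arrays, 5 the opposite sign, and all 865 the same sign under the block and within the 12 arrays. The count fell to 470 without control day 0 replicate 2, to 453 without control day 0 replicate 3, to 658 without control day 0 replicate 4 and to 555 without STAC3 RNAi day 1 replicate 2. In every one of the 15 fits that leave out 1 sample all 865 probes kept their sign, and 241 of the 555 genes passed in all 15. The 865 probes were chosen by a fit to these same samples. That they kept their sign in these fits is therefore no separate evidence. Between 15146 and 16802 probes were detected per array. The level at which probes pass detection is 6.88 on the authors' log2 scale, which compresses dim genes.

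Stac3 itself stood at 7.04, 6.98 and 7.15 in the day 0 controls and at 7.53, 7.69, 7.52 and 7.97 in the day 1 controls. The RNAi samples lay at 6.70, 6.68, 6.79 and 6.75 at day 0 and at 6.74, 6.74, 6.70 and 6.81 at day 1. All 8 RNAi values are below the detection level, so the fall on either day is known only as a bound and no ratio of the 2 falls can be given. The fitted interaction of -0.60 (SE 0.12, limma adjusted p = 0.00982; 0.0539 on the log2 intensity scale) rests on these values and is no measured size. In control cells Stac3 was 0.62 higher at day 1 than at day 0.

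The most negative interactions were mostly those of muscle proteins that were high in day 1 controls and not in day 1 RNAi samples. Parvalbumin (Pvalb), the calcium buffer of fast muscle fibres, had the lowest fitted value at -3.57 (SE 0.44, limma adjusted p = 0.000436), of which the exact size is not known because most of its RNAi values are below detection. Fast troponin C, Tnnc2, which senses calcium on the thin filament, followed at -1.98, the oxygen carrier myoglobin (Mb) at -1.76, muscle phosphoglycerate mutase (Pgam2) at -1.71, the fetal acetylcholine receptor subunit Chrng at -1.64 and the fusion protein myomaker (Mymk) at -1.58. The fast-fibre actinin Actn3 had -1.54, the sarcoplasmic reticulum cation channel Tmem38a -1.50, muscle creatine kinase (Ckm) -1.46, and Klhl41, a kelch protein of the sarcomere, -1.40. The others among the 15 were the complement inhibitor Serping1 (-1.50), the Myc-family factor Mycl (-1.47), the Notch target Hey1 (-1.46), the integrin Itgb4 (-1.39) and the hormone Fgf21, described further on. In bulk RNA, fewer cells of a type and less RNA per cell cannot be told apart.

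The 250 bases before the transcription start are shown for the 4 genes among the 15 most negative interactions that hold CAGCTG and have a single listed promoter, since this motif is the E-box bound by MyoD and myogenin. Capitals mark CAGCTG, and the sequences are RefSeq's on build GRCm38.p6, written in the direction of transcription. Chrng lies at chr1:87205561-87205810 on the plus strand, with the motif starting 155 and 132 bases before the start. Pgam2 lies at chr11:5803797-5804046 on the minus strand, with the motif at 125 bases. Klhl41 lies at chr2:69669870-69670119 on the plus strand, with the motif at 127 bases. Ckm lies at chr7:19410844-19411093 on the plus strand, with the motif at 249 bases.
Chrng: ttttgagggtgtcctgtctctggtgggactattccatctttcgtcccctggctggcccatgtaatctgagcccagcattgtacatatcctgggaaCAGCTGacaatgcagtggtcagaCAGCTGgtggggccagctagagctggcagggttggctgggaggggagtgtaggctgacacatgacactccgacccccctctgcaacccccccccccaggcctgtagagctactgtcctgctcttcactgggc
Pgam2: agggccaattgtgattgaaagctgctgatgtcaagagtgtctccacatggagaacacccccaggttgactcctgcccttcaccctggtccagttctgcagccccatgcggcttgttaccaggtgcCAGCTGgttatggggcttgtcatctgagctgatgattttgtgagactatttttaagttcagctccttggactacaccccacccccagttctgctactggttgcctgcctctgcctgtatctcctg
Klhl41: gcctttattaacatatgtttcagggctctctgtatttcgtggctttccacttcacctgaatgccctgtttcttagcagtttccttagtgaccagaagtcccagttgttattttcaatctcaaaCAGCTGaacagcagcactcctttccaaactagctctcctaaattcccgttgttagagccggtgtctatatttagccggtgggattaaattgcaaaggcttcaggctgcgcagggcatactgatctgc
Ckm: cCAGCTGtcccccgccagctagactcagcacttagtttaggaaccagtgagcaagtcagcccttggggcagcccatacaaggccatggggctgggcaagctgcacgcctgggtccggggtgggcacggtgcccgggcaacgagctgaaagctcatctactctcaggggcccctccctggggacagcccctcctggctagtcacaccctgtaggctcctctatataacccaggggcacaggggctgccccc
CAGCTG reads the same on both strands. Of the 15 genes, 10 have a promoter in the table used, and 5 of these (Mb, Pgam2, Chrng, Ckm and Klhl41) hold it in at least 1 listed promoter. Among the 15 most positive interactions 2 of 12 with a promoter hold it, against 1180 of the 8219 tested genes with a promoter (14.4%). Another E-box, CAGGTG on either strand, was held by 4 of the 10 genes with a negative interaction, by 4 of the 12 with a positive one and by 1451 of the 8219 tested genes (17.7%), and a MEF2 motif by 3, 1 and 156 (1.9%). The motif matches are a description of these windows.

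In Pvalb the day 1 controls stood at 10.37, 11.05, 9.91 and 11.83 and the day 1 RNAi samples at 6.78, 6.80, 6.78 and 7.42. Its day 0 controls were 6.91, 6.78 and 7.48 and its day 0 RNAi samples 6.77, 6.73, 6.79 and 6.83. The groups do not overlap at day 1 and do at day 0, where all 4 RNAi samples and 1 of 3 controls are below detection, as are 3 of 4 RNAi samples at day 1. Chrng differs in that it was already measured at day 0, with controls at 8.37, 8.40 and 9.30 and RNAi samples at 7.27, 7.53, 7.56 and 8.32. At day 1 its controls were 11.99, 12.42, 11.75 and 12.33 and its RNAi samples 9.27, 9.40, 9.05 and 10.12. Both days separate the groups, with an effect of -1.02 (SE 0.29) at day 0 and of -2.66 (SE 0.26) at day 1, and the interaction has an SE of 0.39 (limma adjusted p = 0.0252). The delta subunit of the same receptor, Chrnd, had an interaction of -1.01 (SE 0.15, limma adjusted p = 0.00183). Unlike Chrng, its day 0 RNAi samples lay around the detection level of 6.88, from 6.83 to 6.915. Its day 0 fall is therefore known only as a bound, and the exact size of its interaction is not known.

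Tnnc2 stood at 10.85, 11.55, 10.29 and 11.84 in day 1 controls and at 8.57, 8.63, 8.65 and 9.86 in day 1 RNAi samples. Its day 0 values were 7.07, 7.29 and 8.02 in controls and 7.08, 6.83, 6.99 and 8.03 in RNAi samples. Its difference between days was 1.69 (log2) in RNAi cells against 3.67 in controls, and the groups are apart at day 1 only. The interaction passed narrowly (SE 0.53, limma adjusted p = 0.0454; 0.0259 with array set blocked, 0.0946 in the 12 arrays alone and 0.423 in the 6) and in only 4 of the 15 fits that leave out 1 sample. Mb had day 1 controls at 8.87, 9.35, 8.57 and 10.13 and day 1 RNAi samples at 7.04, 7.13, 6.96 and 7.72, with day 0 controls at 6.90, 7.17 and 7.67 and day 0 RNAi samples at 6.78, 6.79, 6.91 and 7.46. In RNAi cells its difference between days was 0.22 against 1.98 in controls, and the interaction (SE 0.41, limma adjusted p = 0.0237) did not pass without control day 0 replicate 2, without control day 0 replicate 3 or without STAC3 RNAi day 1 replicate 2. Chrng was lost in the same 3 fits and without control day 1 replicate 2.

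For Ckm and Pgam2 every day 0 sample was at or near the background. Ckm had day 0 values of 6.70, 6.80 and 6.77 in controls and 6.68, 6.70, 6.75 and 6.77 in RNAi samples, all below detection, so its day 0 effect is not measured. At day 1 the controls were 8.44, 8.50, 7.85 and 9.03 and the RNAi samples 6.86, 6.91, 6.93 and 7.17, which do not overlap (interaction SE 0.24, limma adjusted p = 0.00313). Pgam2 ranged from 6.71 to 6.88 at day 0, with day 1 controls at 8.33, 8.95, 7.88 and 9.25 and day 1 RNAi samples at 6.81, 6.83, 6.85 and 7.25 (interaction SE 0.31, limma adjusted p = 0.00549). Mymk at day 1 stood at 8.71, 9.16, 8.36 and 9.51 in controls and at 7.33, 7.29, 7.25 and 7.78 in RNAi samples, again apart, with 6.85, 6.90 and 7.01 in day 0 controls and 6.77, 6.82, 7.03 and 7.25 in day 0 RNAi samples (interaction SE 0.28, limma adjusted p = 0.00579). In STAC3 RNAi day 1 replicate 4 Pvalb, Tnnc2, Pgam2 and Mymk were each higher than in the other 3 samples of its group. For Pvalb, Tnnc2, Mb, Mymk and Myog the sample numbered 4 was the highest of its group in all 4 groups.

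A day 0 fall cannot be seen in a gene that lies near the background in day 0 controls. The mean of the day 0 controls was below, or less than 0.5 above, the detection level for 62 of the 274 genes with a negative interaction (22.6%), for 6 of the 15 most negative, and for 3263 of all 10146 genes (32.2%). In 16 of the 274 genes every day 0 sample was below detection.

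**Figure D2:**
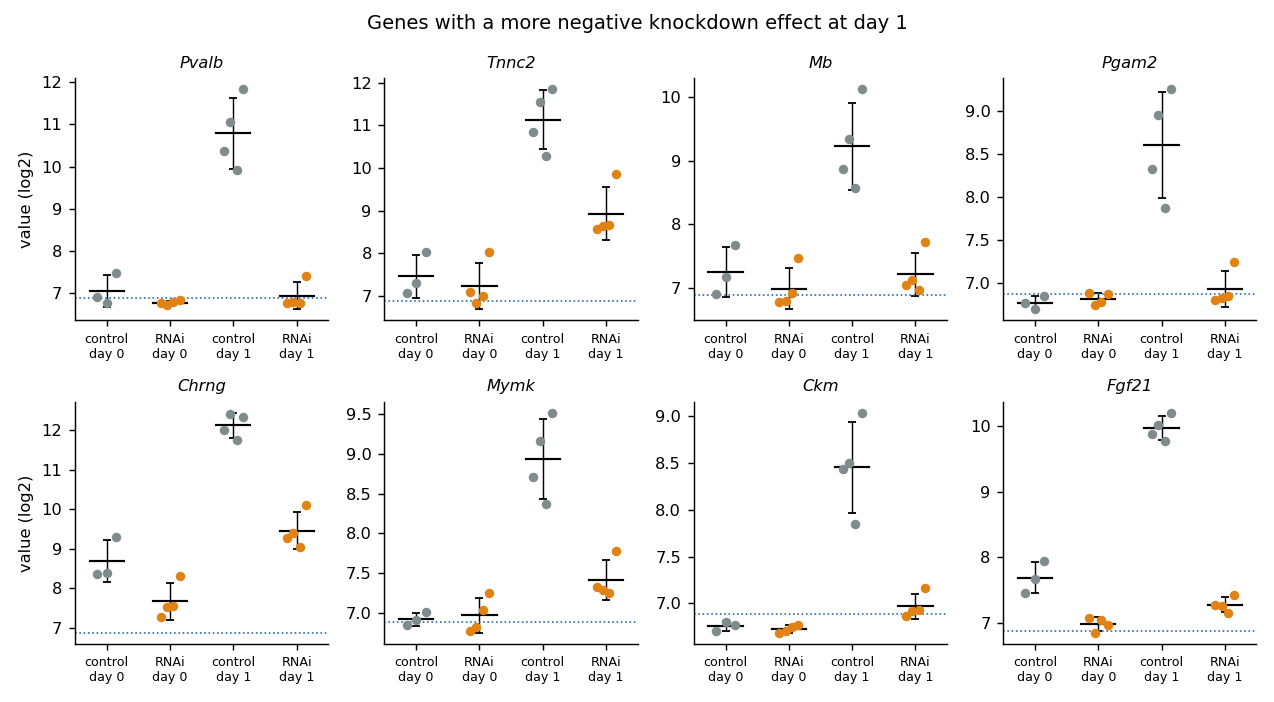
Values (log2) of every sample for 8 genes with a negative interaction, by group; points are samples, bars the mean with its SD, and the dotted line the detection level of 6.88. In all 8 genes the day 1 controls lie above all day 1 RNAi samples, while at day 0 only Fgf21 and Chrng separate the groups.

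By gene list, 6 of 39 sarcomere genes passed with a negative interaction and none with a positive one (15.4%, against 5.47% of all genes). Their median was -0.49 against 0.00515 over all genes. Beside Tnnc2 and Actn3 these were the myosin chaperone Unc45b (-1.30), fast troponin T (Tnnt3, -1.29), the Z-disc protein Csrp3 (-1.12) and the M-band protein Myom3 (-1.05). Of 25 excitation-contraction coupling genes 6 passed, all negative (24%, median -0.18), among them the calcium-binding sarcoplasmic reticulum proteins Srl (-1.38) and Hrc (-1.25). The day 0 RNAi samples of Hrc were all below detection, from 6.76 to 6.78, and those of Srl were near it, from 6.85 to 7.01. The exact sizes of these 2 interactions are therefore not known. Of 20 genes of muscle energy metabolism 8 passed, all negative (40%, median -0.22). Among them were the muscle enolase Eno3 at -0.91 and the muscle cytochrome oxidase subunits Cox8b at -1.04, Cox7a1 at -0.88 and Cox6a2 at -0.71. Every day 0 sample was below detection for 7 of the 39 sarcomere, 3 of the 25 coupling and 3 of the 20 energy genes. Unc45b and Cox8b are among these genes, whose day 0 effects are not measured. At the neuromuscular junction 2 of 10 passed (20%, Chrng and Chrnd), and in fusion and adhesion 1 of 25 (4%, Mymk). With array set blocked the sarcomere median was -0.47, in the 12 arrays alone -0.49 and in the 6 alone -0.48. In that order the medians were -0.18, -0.18 and -0.15 for excitation-contraction coupling, -0.19, -0.30 and -0.27 for energy metabolism, and -0.21, -0.24 and -0.14 for the neuromuscular junction. With 1 sample left out 5 to 13 sarcomere genes passed, with 13 reached without STAC3 RNAi day 1 replicate 4, and 6 to 7 genes of excitation-contraction coupling. For energy metabolism the count was 5 without control day 0 replicate 2 and up to 9 otherwise. For the neuromuscular junction it was 4 without control day 1 replicate 1, and 1 without control day 0 replicate 2 or 3, control day 1 replicate 2 or STAC3 RNAi day 1 replicate 2. In fusion and adhesion it ran from 1 to 4, with the most without STAC3 RNAi day 1 replicate 3.

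**Figure D3:**
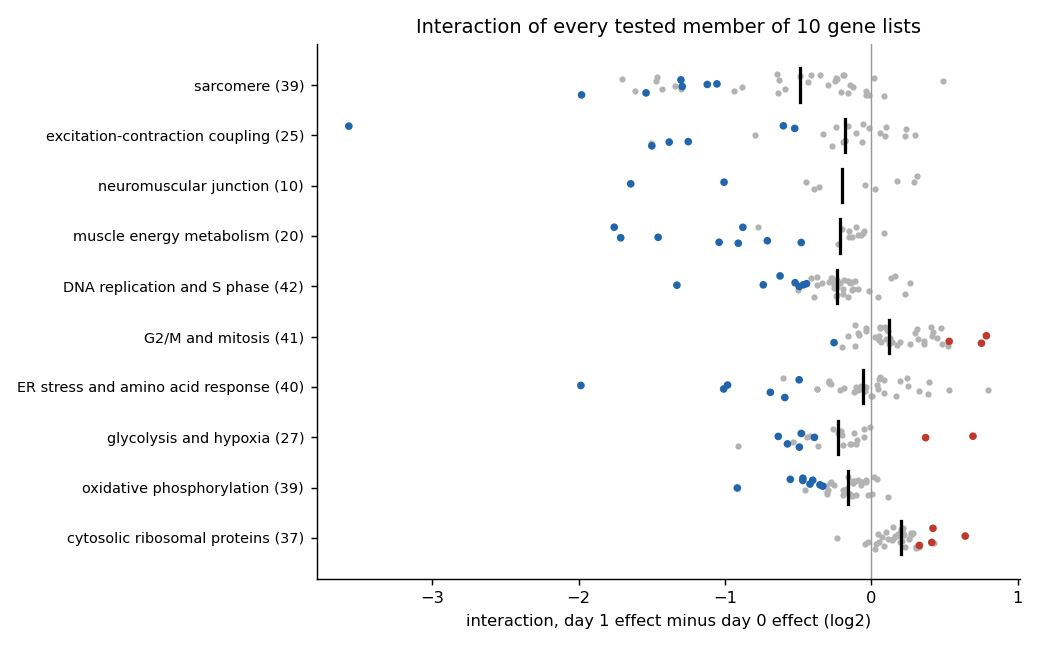
Interaction (log2) of every tested member of 10 gene lists, with the number tested in brackets; coloured points passed the limma test, grey points did not, and black bars are list medians. The sarcomere median of -0.49 lies farthest from 0, and Pvalb at -3.57 is the lowest point.

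The interaction of the regulators at the head of the programme did not pass in the main fit. None of 21 myogenic regulators passed (median -0.07), and 10 had an unadjusted p below 0.05. With quantile normalization once more, 10 of the 21 again had such a p, against 3515 of 18408 probes. With 1 sample left out up to 3 passed, with 3, all negative, without STAC3 RNAi day 1 replicate 4. Blocking on array set gave 1 positive and 2 negative calls, and blocking on replicate number 2 positive and 3 negative. Myog had day 1 controls at 8.99, 9.74, 8.79 and 9.92 and day 1 RNAi samples at 7.46, 7.71, 7.98 and 8.40. Its day 0 controls were 6.92, 6.81 and 7.46 and its day 0 RNAi samples 6.77, 6.75, 6.79 and 7.14, so the groups are apart at day 1 and overlap at day 0. The interaction was -1.27 (SE 0.36, limma adjusted p = 0.054; 0.032 with array set blocked, 0.0607 in the 12 arrays alone and 0.667 in the 6). Myod1 had -0.60 (SE 0.18, limma adjusted p = 0.0746), with an effect of 0.22 at day 0 and -0.38 at day 1. Mef2c, a factor that acts with the MyoD family, had 0.04 with a 95% interval of -0.17 to 0.25. Its values ran only from 6.83 to 7.17 over all samples, near the detection level of 6.88. The authors' scale compresses differences there, so the narrow interval does not show that Mef2c was unchanged. Myf5, Mki67 and Myh3 were not tested here.

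Cdkn1a passed with -0.80 (SE 0.12, limma adjusted p = 0.00183), in all 15 fits that leave out 1 sample. Its RNAi effect was -0.33 at day 0 and -1.13 at day 1, as its level went from 12.07, 11.92 and 12.11 to 12.97, 13.30, 13.16 and 13.33 in controls and from 11.56, 11.74, 11.84 and 11.67 to 12.14, 12.01, 12.06 and 12.03 in RNAi cells. The groups do not overlap on either day. Of 23 genes of the progenitor state, Notch and Id factors 2 passed (8.7%; median -0.01), the Notch targets Hey1 at -1.46 and Heyl at -0.53. All 7 day 0 values of Heyl are below detection, so its day 0 effect is not measured. For Hey1 the RNAi effect was 0.70 at day 0 and -0.76 at day 1, but these effects did not both pass. At day 1 its groups overlap, with controls from 8.44 to 9.53 and RNAi samples from 7.68 to 9.14. The interaction of Hey1 (SE 0.38, limma adjusted p = 0.0407) passed in only 3 of the 15 fits that leave out 1 sample. Within the 12 arrays it did not pass (limma adjusted p = 0.0653).

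Fgf21, a secreted metabolic hormone induced by stress of mitochondria and the endoplasmic reticulum, had the second lowest interaction at -1.98 (SE 0.15, limma adjusted p = 5.01e-06). Day 1 controls stood at 9.88, 10.02, 9.78 and 10.20 and day 1 RNAi samples at 7.27, 7.26, 7.15 and 7.42. At day 0 the controls were 7.46, 7.67 and 7.95 and the RNAi samples 7.08, 6.85, 7.05 and 6.96. The groups are apart on both days, with an effect of -0.71 at day 0 and of -2.69 at day 1. The day 0 RNAi samples of Fgf21 lie near or below the detection level of 6.88, where a larger fall could not be seen. The exact size of its interaction is therefore not known. Of 40 genes of ER stress and the amino acid response 6 passed, all negative (15%; median -0.06). They include the serine enzyme Psat1 (-0.98), the mitochondrial folate enzyme Mthfd2 (-0.69), asparagine synthetase (Asns, -0.59) and the lipoprotein receptor Vldlr (-1.01). For Psat1 the RNAi effect was 0.00 at day 0 and -0.98 at day 1.

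In glycolysis and hypoxia 5 of 27 genes passed with a negative interaction and 2 with a positive one (25.9%; median -0.23). The negative ones are enzymes, triose phosphate isomerase (Tpi1, -0.64), pyruvate kinase (Pkm, -0.57), Gapdh (-0.39), muscle phosphofructokinase (Pfkm, -0.48) and the collagen prolyl hydroxylase P4ha2 (-0.49). The positive ones are the stress-responsive Ndrg1 (0.69) and the glucose carrier Slc2a3 (0.37). Of 39 genes of oxidative phosphorylation 8 passed, all negative (20.5%; median -0.16), led by cytochrome c (Cycs) at -0.92 (SE 0.07, limma adjusted p = 7.58e-06). Cycs stood at 12.05, 12.05, 11.98 and 12.03 in day 0 RNAi samples against 11.92, 11.91 and 11.90 in controls, and at 10.86, 10.86, 10.84 and 11 in day 1 RNAi samples against 11.61, 11.77, 11.67 and 11.71 in controls. The groups do not overlap on either day, but the day 0 difference of 0.12 did not pass, against -0.80 at day 1. Medians with array set blocked, in the 12 arrays alone and in the 6 alone were -0.20, -0.25 and -0.15 for glycolysis and -0.15, -0.18 and -0.13 for oxidative phosphorylation. The energy metabolism list shares Pfkm and Ldha with the glycolysis list. The glycolysis count fell to 3 without control day 0 replicate 2. That of oxidative phosphorylation fell to 1 without control day 0 replicate 3 and to 5 without control day 0 replicate 2, STAC3 RNAi day 0 replicate 2 or STAC3 RNAi day 1 replicate 2.

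E2f1, the transcription factor that activates replication genes, had a larger RNAi effect at day 0 than at day 1, where it did not pass. At day 0 controls stood at 8.95, 8.96 and 8.92 and RNAi samples at 10.19, 10.11, 10.10 and 10.11. At day 1 controls were 9.68, 9.47, 9.65 and 9.42 and RNAi samples 9.33, 9.46, 9.51 and 9.35. The groups are apart at day 0 and overlap at day 1. The effect was 1.18 (SE 0.07) at day 0 and -0.14 (SE 0.06, not passing) at day 1, an interaction of -1.33 (SE 0.09, limma adjusted p = 5.01e-06). Blocking on array set and taking the 12 arrays alone both gave -1.34, and the 6 arrays gave -1.36. Its DP partner Tfdp1 was another case: the RNAi effect was 1.41 (SE 0.09) at day 0 and 1.04 (SE 0.08) at day 1, and the interaction of -0.37 (95% interval -0.63 to -0.10) did not pass (limma adjusted p = 0.11).

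Further genes with a smaller effect at day 1 were cyclin E2 (Ccne2), which starts S phase, with 0.89 at day 0 and 0.26 at day 1, and the cell cycle transcription factor Mybl2 with 0.77 and 0.22. Both were near detection in day 1 controls, Ccne2 at 6.91, 7.02, 7.04 and 6.90 and Mybl2 at 6.87, 6.97, 6.88 and 6.80, where the authors' scale compresses differences. Cox18, a mitochondrial inner membrane insertase, had 0.73 and 0.38, but its interaction of -0.35 passed in only 2 of the 15 fits that leave out 1 sample, and its other probe had the opposite sign. The secreted protease Htra3 went from -0.78 at day 0 to 0.38 (not passing) at day 1. E2f2 had an effect of 0.12 at day 0 and -0.62 at day 1, an interaction of -0.74 (SE 0.18, limma adjusted p = 0.0311) that passed in 6 of the 15 fits that leave out 1 sample. In contrast to E2f1, the replicative helicase subunit Mcm5 rose on both days, by 1.09 (SE 0.11) and 0.94 (SE 0.10), and its interaction of -0.15 had a 95% interval of -0.47 to 0.17. Its day 0 values were 10.27, 10.47 and 10.14 in controls and 11.33, 11.33, 11.47 and 11.40 in RNAi samples. At day 1 they were 8.03, 8.13, 8.22 and 7.81 in controls and 8.81, 8.83, 9.20 and 9.11 in RNAi samples. The RNAi samples lie above the controls on both days, while the change between days was -2.25 in controls and -2.40 in RNAi cells.

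Of 42 genes of DNA replication and S phase 7 passed, all negative (16.7%; median -0.23). Beside those named these were the ribonucleotide reductase subunit Rrm1 (-0.52), the fork protein Tipin (-0.49), cyclin E1 (Ccne1, -0.46) and the GINS subunit Gins3 (-0.44). At day 0, 30 of the 42 rose and none fell, against 8.04% of all genes rising. At day 1, 17 rose and 1 fell, against 19.9% of all genes rising. Of 41 genes of G2/M and mitosis 3 passed with a positive interaction and 1 with a negative one (9.76%; median 0.12). The positive ones were the anaphase activator Cdc20 (0.79), the cytokinesis protein Anln (0.75) and the checkpoint kinase Bub1b (0.53). For Cdc20 the RNAi effect was 0.07 at day 0 and 0.86 at day 1, with 8.74, 8.91, 9.20 and 8.50 in day 1 controls and 9.67, 9.75, 9.47 and 9.89 in day 1 RNAi samples. The negative one, Ccnf, was below detection in all 8 day 1 samples. The replication median was -0.25 with array set blocked, -0.29 in the 12 arrays alone and -0.31 in the 6. For G2/M it was 0.09, 0.08 and -0.01, and without control day 0 replicate 2 none of its members passed, against 7 without control day 1 replicate 3. The replication count fell to 4 without control day 0 replicate 3 or 4. Cyclin D1 (Ccnd1) had an interaction of 0.03 with a 95% interval of -0.41 to 0.47.

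Histone H2A genes, chosen for this account after their values were seen, form a family of near-identical members, so a probe can read several of them and single values are uncertain. Of 14 H2A genes 8 passed, all positive (median 0.67), against 2.77% of all genes passing with a positive interaction. H2ac22 had 1.05 (SE 0.19) and H2ac7 0.99 (SE 0.14). H2ac7 stood at 11.46, 11.33, 11.55 and 11.09 in day 1 controls and at 12.61, 12.71, 12.89 and 12.62 in day 1 RNAi samples, and at day 0 at 13.99, 14.16 and 13.81 in controls and at 14.42, 14.35, 14.34 and 14.27 in RNAi samples. The RNAi effect was 0.36 at day 0 and 1.35 at day 1. None of 11 H2B genes (median 0.02) and none of 9 H3 genes (median 0.13) passed, and 1 of 12 H4 genes did.

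**Figure D4:**
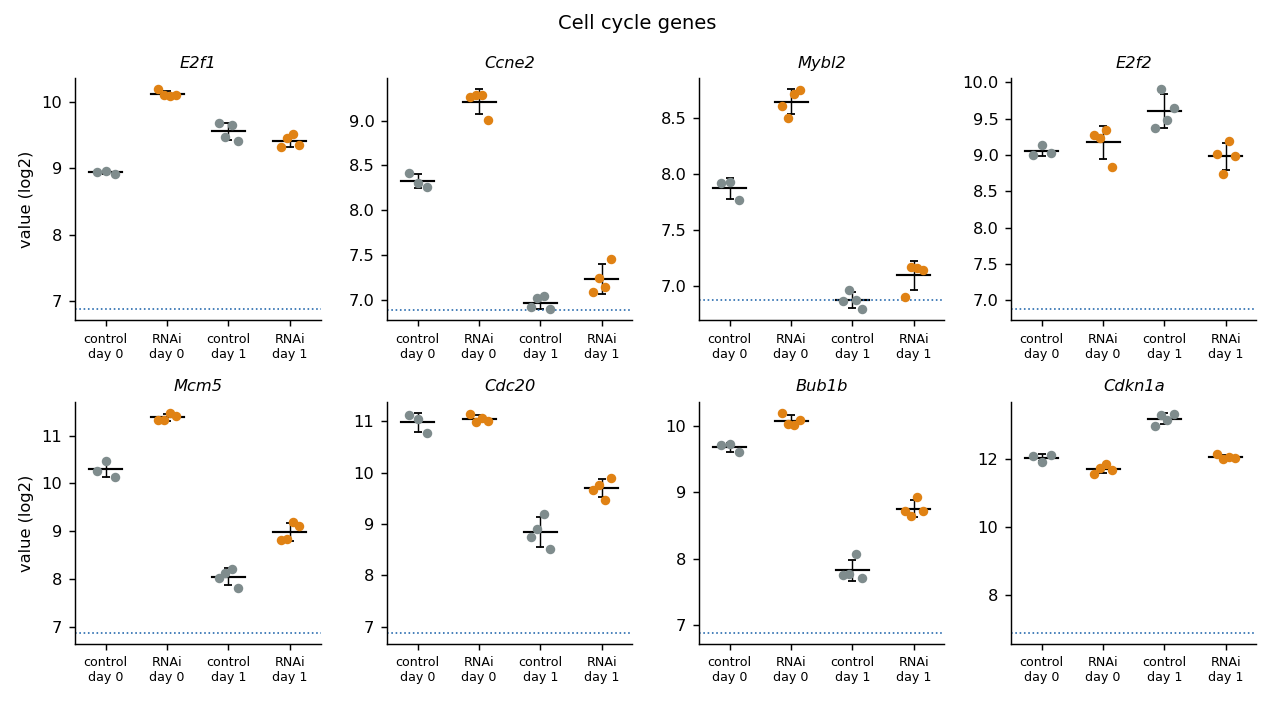
Values (log2) of every sample for 8 cell cycle genes, by group; points are samples, bars the mean with its SD, and the dotted line the detection level of 6.88. E2f1 separates RNAi from control samples at day 0 and not at day 1, Mcm5 on both days, and Cdc20 at day 1.

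The largest positive interaction was that of Fam180a at 2.24 (SE 0.17, limma adjusted p = 5.01e-06). Its day 0 values were 6.80, 6.87 and 6.85 in controls and 6.86, 6.98, 6.85 and 6.85 in RNAi samples, near or below detection. At day 1 it stood at 7.41, 7.64, 7.42 and 7.77 in controls and at 9.96, 9.74, 9.51 and 10.20 in RNAi samples, which do not overlap. The microsomal glutathione transferase Mgst1 had 1.49 (SE 0.29, limma adjusted p = 0.0089), with 7.76, 7.02, 7.31 and 7.15 in day 1 controls and 9.67, 9.42, 8.70 and 8.65 in day 1 RNAi samples. At day 0 Mgst1 stood at 7.40, 7.29 and 7.39 in controls and at 7.84, 7.73, 7.50 and 7.62 in RNAi samples, which do not overlap either, but the difference of 0.31 did not pass. The transmembrane glycoprotein Gpnmb had 1.19 (SE 0.23, limma adjusted p = 0.00854), with 7.46, 7.92, 7.76 and 7.60 in day 1 controls and 8.76, 9.27, 8.93 and 8.54 in day 1 RNAi samples, and an effect of 0.00 at day 0.

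Ugt1a10, a glucuronidation enzyme, had 1.72 (SE 0.43, limma adjusted p = 0.0332). Genes of the Ugt1a cluster share their last exons, so which member the probe reads is uncertain, and the interaction passed in only 5 of the 15 fits that leave out 1 sample. The others among the 15 were the pseudokinase Fam20a of the secretory pathway (1.29), the IGF-binding protein Igfbp4 (1.25), the calcification inhibitor Mgp (1.21), the secreted protease Htra3 (1.17), the receptor Gpr176 (1.16), ceruloplasmin, which oxidises iron (Cp, 1.14), the iron exporter ferroportin (Slc40a1, 1.14), lipoprotein lipase (Lpl, 1.11), the receptor kinase Epha1 (1.10), Mmd (1.10) and the Rab5 exchange factor Rin2 (1.09). Rin2 was the most precisely measured of these, with an effect of 0.25 at day 0 and 1.34 (SE 0.07) at day 1 and an interaction SE of 0.11 (limma adjusted p = 8.89e-05). For Lpl the day 1 controls were 8.31, 8.64, 8.89 and 8.71 and the day 1 RNAi samples 9.52, 9.79, 9.60 and 9.95, while the day 0 samples overlapped.

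Lists with a positive median were described by the same counts. Of 37 genes of glutathione, antioxidant defence and conjugation 4 passed, all positive (10.8%; median 0.20), Ugt1a10, Mgst1, the aldehyde dehydrogenase Aldh2 (0.75) and the glutathione transferase Gsto1 (0.57). With 1 sample left out this count ran from 2, without control day 0 replicate 2 and 4 other samples in turn, to 10 positive and 1 negative without STAC3 RNAi day 1 replicate 4. Of 37 cytosolic ribosomal protein genes 4 passed, all positive (10.8%; median 0.20), Rpl22 at 0.64, Rps6 at 0.42, Rps10 at 0.41 and Rpl28 at 0.33, and 34 of 37 had a positive sign. Ribosomal protein genes have many processed pseudogenes, and Rpl22, Rps6 and Rpl28 passed in 9, 3 and 2 of the 15 fits that leave out 1 sample. The count ran from 1 to 7 in these fits, with 7 without control day 1 replicate 1, and 1 negative call beside 2 positive ones without control day 1 replicate 4. The ribosomal median was 0.21 with array set blocked, 0.22 in the 12 arrays alone and 0.18 in the 6. Of 30 immediate early genes 3 passed, all positive (10%; median 0.11), the growth factor response genes Egr2 (1.02) and Egr1 (0.77) and the Ras pathway inhibitor Spred1 (0.60). For Egr2 the RNAi effect was 0.47 at day 0 and 1.50 at day 1, and 5 genes of the list passed without STAC3 RNAi day 1 replicate 4.

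Of 21 inflammation genes 3 passed, all positive (14.3%; median 0.32), the chemokine Cx3cl1 (0.61), the NF-kappa-B subunit Nfkb2 (0.37; -0.03 within the 6 arrays) and the macrophage growth factor Csf1 (0.77). Csf1 is a fall that was smaller at day 1 on the authors' scale: its RNAi effect was -1.08 (SE 0.10) at day 0 and -0.31 (SE 0.10) at day 1. Its controls stood at 9.10, 8.99 and 8.93 at day 0 and at 7.59, 7.85, 7.91 and 8.13 at day 1. The day 1 values lie nearer the detection level of 6.88, which leaves less room for a fall. Cx3cl1 and Nfkb2 each passed in 3 of the 15 fits that leave out 1 sample. The kinase gene Pim3 had an effect of -0.94 (SE 0.11) at day 0 and -0.18 (SE 0.10, not passing) at day 1. In the TGF-beta and BMP list 3 of 27 passed with a positive interaction, the BMP antagonist Grem1 (0.93), the follistatin-like Fstl1 (0.86) and the activin subunit Inhba (0.62), and 1 with a negative one, the receptor Tgfbr1 (-0.38). Of the 15 fits that leave out 1 sample Grem1 passed in 7, Fstl1 in 3 and Tgfbr1 in 3, and the list had 1 to 4 calls. Among 24 IGF axis genes Igfbp4 and the phosphoinositide kinase subunit Pik3r1 (0.85) passed with a positive and Igfbp2 (-1.09) with a negative interaction. These are 12.5% of the list, against 5.47% of all genes, and 1 was left without control day 0 replicate 2 or 3. The p53 targets went both ways, with Cdkn1a, the BH3-only gene Pmaip1 (-0.67) and Rrm2b (-0.50) negative and Sesn1 (0.95) positive, of 26 (15.4%).

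The remaining lists had few passing genes, with shares to be read against 5.47% of all genes. Passing were 1 of 37 extracellular matrix genes (2.7%, Mgp) and 1 of 19 proteases and inhibitors (5.26%, the plasminogen activator Plat at 0.58). Of 20 interferon response genes 2 passed (10%, Gbp2 at 0.65 and Ifi27 at 0.32). Among 27 cholesterol and fatty acid genes it was 1 (3.7%, the desaturase Fads1 at 0.35, list median 0.24), and among 16 tubulins and stathmins 1 (6.25%, Tuba1a at -0.41). With 1 sample left out the interferon list had 1 to 3 calls, proteases 0 to 2, cholesterol genes 0 to 3, tubulins 0 to 3 and matrix genes 1 to 2. None of 27 heat shock genes and none of 16 genes of the RNAi machinery passed, where 3 and 2 had an unadjusted p below 0.05. These are no larger shares than over all probes, where 3515 of 18408 had such a p with quantile normalization once more. Markers of other cell types were read in the same way. Of 11 fibroblast markers 1 passed (9.09%), the PDGF receptor Pdgfra (0.43), with 10 of 11 positive in sign and a median of 0.33. Of 7 adipocyte markers Lpl passed with a positive and Dgat2 (-0.56) with a negative interaction (28.6%). None of 8 smooth muscle markers and neither of 2 bone cell markers passed, with 1 marker of each at an unadjusted p below 0.05. None of 8 myoblast markers passed, although 7 of 8 were negative with a median of -0.60 and 6 had an unadjusted p below 0.05, and up to 3 passed with 1 sample left out. The desmin gene Des, a marker of the muscle lineage, was high in all groups, with means of 12.55 and 12.27 at day 0 and of 13.27 and 12.87 at day 1 in control and RNAi cells.

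In 20 genes the RNAi effect passed on both days with opposite signs, 10 turning from a fall to a rise and 10 from a rise to a fall. The largest turn was that of the iron exporter Slc40a1, with -0.79 (SE 0.13) at day 0 and 0.35 (SE 0.12) at day 1 (limma adjusted p of the interaction = 0.00206). Its day 0 values were 9.63, 9.53 and 9.89 in controls and 8.85, 8.94, 9.03 and 8.76 in RNAi samples. At day 1 they were 10.38, 10.93, 10.61 and 10.52 in controls and 10.71, 11.15, 10.90 and 11.08 in RNAi samples. The groups are apart at day 0 and overlap at day 1. Sesn1, a stress-induced regulator of growth signalling, went from -0.44 (SE 0.08) to 0.51 (SE 0.08). It stood at 9.50, 9.47 and 9.78 against 9.12, 9.04, 9.16 and 9.24 at day 0 and at 10.61, 10.55, 10.35 and 10.58 against 11.02, 10.93, 11.10 and 11.10 at day 1 (controls first). Here the groups are apart on both days.

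The pyrophosphate transporter gene Ank went from -0.46 to 0.52, with every RNAi sample beyond every control on both days (12.06, 12.02 and 12.01 against 11.55, 11.61, 11.66 and 11.49 at day 0, and 11.48, 11.68, 11.60 and 11.40 against 12.30, 12.08, 11.91 and 11.98 at day 1). Thrombomodulin (Thbd), an anticoagulant receptor, went from -0.42 to 0.33 and the translation inhibitor Pdcd4 from -0.35 to 0.29. The G protein regulator Rgs3 went from -0.40 to 0.49, but 1 of its 2 other probes had the opposite sign. In the other direction Pkia, an inhibitor of protein kinase A, went from 0.53 to -0.53 and Nt5dc2 from 0.56 to -0.39. Of the mitochondrial genes among the 20, the complex I assembly factor Ndufaf4 went from 0.27 to -0.20, and the import chaperone Timm9 from 0.26 to -0.27.

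**Figure D5:**
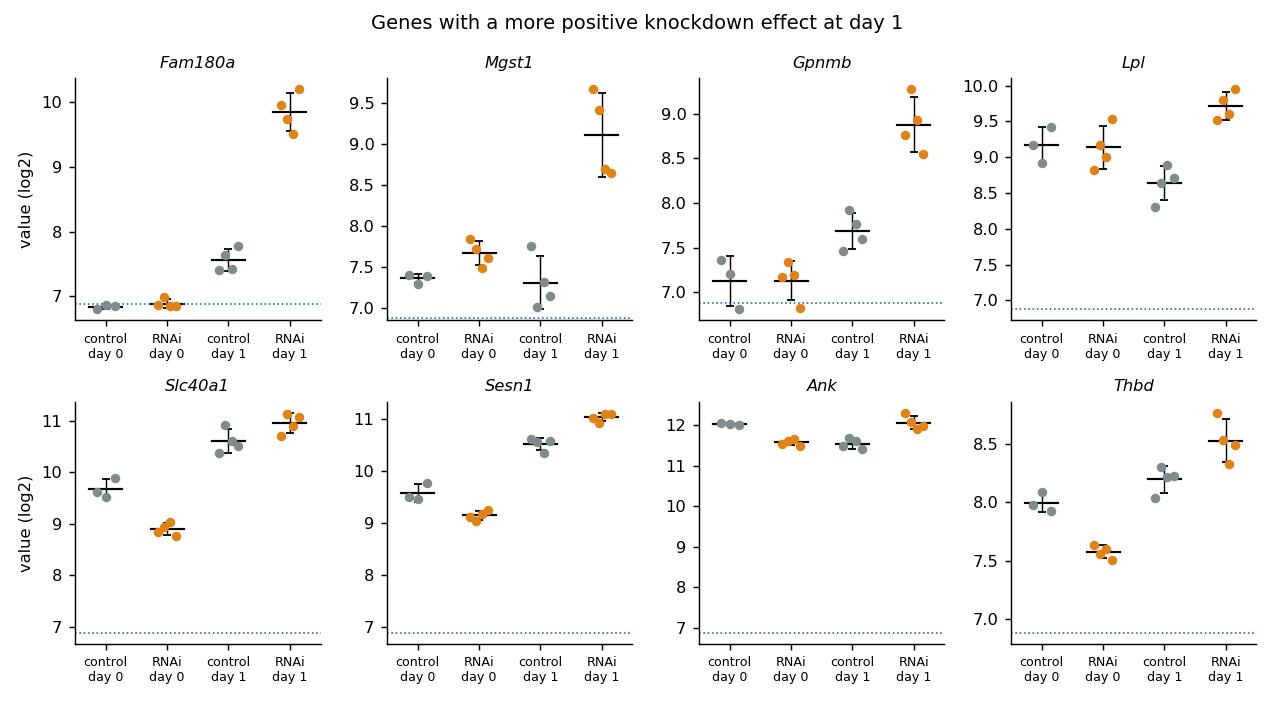
Values (log2) of every sample for 8 genes with a positive interaction, by group; points are samples, bars the mean with its SD, and the dotted line the detection level of 6.88. Fam180a, Gpnmb and Lpl separate the groups at day 1 only, and Sesn1, Ank and Thbd lie lower in RNAi samples at day 0 and higher at day 1.

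For 10 genes with large RNAi effects in the same direction on both days the 95% interval of the interaction lay within 0.5 log2 units of 0. The aminopeptidase-like gene Rnpepl1 stood at 9.56, 9.41 and 9.30 in day 0 controls and at 11.33, 11.23, 11.35 and 11.15 in day 0 RNAi samples. At day 1 it was 9.94, 9.86, 9.75 and 9.67 in controls and 11.44, 11.49, 11.48 and 11.73 in RNAi samples. The effect was 1.85 and 1.73, and the interaction of -0.12 had a 95% interval of -0.36 to 0.13. Bcap29, a protein of the endoplasmic reticulum membrane, had effects of -1.50 and -1.66, with an interaction of -0.16 (95% interval -0.39 to 0.07). The cytoskeletal GTPase Septin2 had effects of -1.42 and -1.47, with an interaction of -0.05 (95% interval -0.31 to 0.22).

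Others of this kind were the arginine methyltransferase Prmt3 (-1.27 and -1.11; 1 other probe has an interaction of the opposite sign), the secretory GTPase Rab1a (-1.13 at day 0, with an interaction of 0.13), the ribosome biogenesis gene Rsl24d1 (-1.05 and -1.05), the lipid kinase Pip4k2c (-0.94 and -1.15), Glipr2 (0.99 and 1.10) and the RNA methylation reader Ythdf1 (1.03 and 0.98). In each of these the 95% interval of the interaction lies within 0.5 of 0, by the way they were chosen. Among all 10146 genes 7332 had such an interval.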

How the data were processed

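The members and gene lists were chosen with earlier results of these data known. The deposited value table holds the authors' log2 values for 24538 probes, made with lumi, per the submitters' processing notes (its version is not given here). The deposited non-normalized table gives bead intensity and a detection p-value for 45281 probes, per the file headers. The names of 12 of its 18 columns do not match the value table's probe ranking, so samples were taken from the value table alone, and detection was counted over all arrays without column names. Tested probes had a detection p-value under 0.01 on 3 or more arrays (18408, of which 15954 have 1 gene name in GEO's platform annotation). Repeat arrays (STAC3 RNAi day 1 replicate 1, control day 1 replicate 3, control day 0 replicate 4) were averaged with their partners (r of 0.9956, 0.9955 and 0.9949). The 4 groups were fitted with limma 3.58.1 in R 4.3.3 (lmFit, eBayes, 11 residual degrees of freedom) with Benjamini-Hochberg adjustment over all probes kept, and a pass is an adjusted p under 0.05. The array set was read from the median intensity of the non-normalized columns; the 6 lower columns have names that match. The script was tested on simulated data.

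Genes were named by rule: the 15 largest interactions in each direction that kept their sign without any 1 sample, 8 opposite on both days, 10 alike on both days, 8 larger on day 0, up to 4 in each direction per list, and a fixed set around Stac3, Myog and E2f1. The H2A genes, the remaining passing members of lists, Ndufaf4, Timm9 and Des were named after their values were seen. Lists number 32 and are described by counts and medians without a set test. Alternatives were no detection filter, detection on all arrays, log2 intensity read through the pooled ranking, quantile normalization once more, an intensity trend, repeats left out, replicate number or array set as a block, each array set alone, and each sample left out.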

Additional observations from a re-analysis of the deposited data

Results flagged for a closer look

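The interaction itself is a difference between the days in the effect of the same RNAi, and it passed for 865 probes by its own test. Among the genes named, 19 of 342 groups of 4 samples (5.56%) have 1 sample apart from the other 3 by Dixon's criterion, where chance gives about 1 in 20. Of these, 6 are STAC3 RNAi day 1 replicate 4, which is also set apart on the principal component that holds 5.62% of the variance (-21.1, against 2.76 to 10.5 in the others of its group). It lay above the others of its group for Pvalb (7.42), Tnnc2 (9.86), Pgam2 (7.25), Mymk (7.78), Cox8b (7.74) and Cycs (11). Without it 1084 probes passed.

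STAC3 RNAi day 1 replicate 3 was higher for Pdcd4 (10.75) and Anln (10.55) and lower for Pim3 (9.13). Replicate 2 of that group was higher for Ythdf1 (9.71) and replicate 1 lower for Mybl2 (6.91). In the day 0 RNAi group replicate 4 was lower for Ccne2 (9.01) and higher for Fstl1 (11.42), Nfkb2 (7.53) and Myog (7.14). Replicate 2 was higher for Fam180a (6.98), replicate 1 for Pfkm (10.13) and replicate 3 for Dgat2 (7.66). In the day 1 controls replicate 3 was higher for Bub1b (8.06).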

How the results depend on the processing

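No interaction of the 865 probes changed sign under the alternatives run, except 5 within the 6 arrays, among them that of Nfkb2 (-0.030). The probes were chosen from the same samples, so this is no separate evidence for their signs. Within the 6 arrays, which leave 2 residual degrees of freedom, the interaction count was 0, positive 0 and negative 0 (1358 probes at an unadjusted p below 0.05), the day 0 count 9 and the day 1 count 1929. Leaving out 1 sample at a time gave 453 to 1084 probes, 228 to 551 positive and 221 to 533 negative; the day 0 count ran from 1480 to 2565. All other alternatives gave 658 (log2 intensity) to 1216 (array set as a block). Members of lists that passed numbered 143 with the replicate number as a block and 0 within the 6 arrays, and 53 to 119 with 1 sample left out. Of the muscle, cell cycle, stress and energy lists, some medians moved beyond the spread between replicates. With probes detected on all arrays these included sarcomere -0.76, G2/M 0.23 and glycolysis -0.37. On the log2 intensity scale they included energy metabolism -0.45 and G2/M 0.23. Within the 6 arrays they included G2/M -0.015, heat shock -0.16 and p53 targets 0.088. Within the 12 they included ER stress -0.11 and p53 targets -0.078. With repeats left out myogenic regulators moved to -0.14. Other lists moved too: TGF-beta to 0.30 with probes detected on all arrays, myoblast markers to -0.35 within the 6 arrays and -0.76 within the 12, smooth muscle markers to -0.0017 within the 6, and fibroblast markers to 0.47 on the log2 intensity scale. With 1 sample left out the medians ran from -0.37 to -0.12 for the neuromuscular junction, from -0.12 to -0.016 for ER stress and from -0.20 to -0.15 for oxidative phosphorylation. Without control day 0 replicate 3, 4 replication genes and 1 oxidative phosphorylation gene passed. The causes were not tested. Calls of Tnnc2, Mycl, Hey1, Klhl41, Ugt1a10, Anln, E2f2, Fstl1, Tgfbr1, Cx3cl1, Nfkb2, Fads1, Grem1, Plat, Pdgfra, Dgat2, Ifi27, Ccnf, Cox18, Rpl22, Rps6 and Rpl28 were lost in over 5 of the 15 leave-outs. Same-numbered samples did not deviate together in all pairs (r from -0.20 to 0.49, over 0.1 in 13 of 21 pairs), and 8 of 15 samples were most like one of their own number. All 6 pairs of samples numbered 4 had r from 0.10 to 0.49. The numbers were therefore not taken to pair the samples. With the replicate block 1102 probes passed, with 19 of 39 sarcomere genes, 5 of 21 myogenic regulators (3 negative) and 4 of 8 myoblast markers. Dim genes are limited by the detection level, below which falls cannot be measured.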
